A study of Mus musculus with 2 samples.

Results

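Collagen genes were taken as every gene of the count matrices whose symbol has the form Col, a number, the letter a and a number, which gave 44 of the 32286 measured features. All 44 are protein-coding genes and lie on 15 chromosomes. RNA of single cells was counted in flank skin from mouse embryos at stage E13.5, when the dermis is still forming. The library called control comes from embryos whose title names the SmoM2YFP allele alone, and the library called mutant from embryos with Axin2CreER and Rosa-lox-STOP-lox-SmoM2YFP, whose title places SmoM2YFP in the dermis. CreER is a recombinase that tamoxifen activates, here driven from Axin2, a gene switched on by Wnt signalling, and SmoM2 is an active form of Smoothened that turns on Hedgehog signalling. The time and dose of induction are not given in the sources used here. A group is 1 library, for which 2 to 3 embryos were pooled. Differences between the groups therefore have no replicate check and were not tested.

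Collagens are the main structural proteins of connective tissue. Chains of a collagen wind into a triple helix in the endoplasmic reticulum after prolines and lysines have been hydroxylated, and the helix is then exported, trimmed and crosslinked outside the cell. Fibrillar collagens (types I, II, III, V, XI, XXIV and XXVII among those measured here) build the fibrils of connective tissues such as the dermis, network collagens such as types IV and VIII build sheets, and type IV is the framework of basement membranes. Type VI forms beaded filaments, type VII the anchoring fibrils that tie the epidermal basement membrane to the dermis, and type XVII is a transmembrane collagen of hemidesmosomes in basal keratinocytes. Fibril-associated collagens such as types XII and XIV sit on fibril surfaces, and types XV and XVIII are basement membrane proteoglycans.

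Each count is a unique molecular identifier (UMI), that is, 1 tagged RNA molecule, and the 3′ chemistry gives 1 tag per molecule, so levels of different genes can be set side by side with no scaling to length. Levels are UMIs per 1000000 UMIs of all genes in the same cells (CPM), with a 95% interval in parentheses that covers counting error only. The filters left 11527 cells of the control and 8514 of the mutant library, with a median of 7442 and 6662 UMIs per cell. The libraries shared 48 cell barcodes, 37 of them among the cells kept. In dermal cells the Hedgehog target Ptch1 had 5.81 CPM in the control and 267 CPM in the mutant library, and the reporter eYFP had 24 and 924 UMIs, as the titles would have it. The genotype fields of the labels name the opposite groups. Hemoglobin UMIs, which stand for free RNA in cells that make no hemoglobin, were at 210 CPM in control and 986 CPM in mutant dermal cells, and the part of free RNA in the differences below was not tested.

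Cells were sorted into classes by clustering without any collagen gene, so collagen counts did not place a cell. The classes are dermal mesenchymal-like, epidermal-like, muscle-like, mural-like, Schwann- and glial-like, endothelial-like, melanoblast-like, macrophage-like, mast- and other blood-like and erythroid-like, written below without the suffix. The dermal class held 7580 control and 4572 mutant cells. All 9 of its markers, among them Pdgfra, Twist2 and Dcn, were above 10 CPM in both libraries, and of 8 cartilage markers Acan, Matn1, Cnmd and Comp had at most 10 UMIs, although Sox9 was at 16 and 18.4 CPM and Matn4 at 5.02 CPM in control and 31.2 CPM in mutant (summed list 22.6 and 52.0 CPM). A further cluster of 1179 control and 581 mutant cells also had all 9 dermal markers above 10 CPM, but the neuronal marker Prph stood among its 10 leading genes, and it is therefore called the Prph and Ccn3 cluster after its leading genes. Of the other 6 neuronal markers, only Nefl reached 10 CPM there. The erythroid class carried dermal markers at 2175 and 2095 CPM beside its hemoglobin, and the macrophage class at 48.7 and 34.6 CPM.

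The collagen genes together were highest in the Prph and Ccn3 cluster, at 13586 CPM in the control library (13503 to 13670) and 13256 CPM in the mutant library (13118 to 13394). Dermal cells followed with 6602 CPM (6580 to 6623) in control and 5579 CPM (5552 to 5606) in mutant. Mural cells, the contractile cells around small vessels, had 4802 and 4621 CPM, so 3 mesenchymal groups stood at the top of the order. Endothelial cells had 2215 and 1994 CPM, and Schwann and glial cells 2067 and 2523 CPM. Muscle cells had 826 and 951 CPM, epidermal cells 484 and 452 CPM, and melanoblasts 261 and 154 CPM. Macrophages, taken as the class that should lack fibrillar collagen, had 76.2 and 84.4 CPM, and their level is given below beside some of the genes as a background. The erythroid class had 2968 and 3060 CPM, with dermal markers present as given above, and its collagen values are not read as those of red cells.

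Of all collagen UMIs in the kept cells, 73.0% of the control and 71.9% of the mutant library were in dermal cells and 20.0% and 15.5% in the Prph and Ccn3 cluster. In dermal cells Col1a1, Col1a2 and Col3a1 together made up 70.7% and 62.0% of collagen UMIs in control and mutant. In endothelial cells these genes made up 5.58% and 2.41%, while network collagens made up 64.5% and 67.5%. In epidermal cells network collagens held 28% and 34.8%, and the basement membrane proteoglycans of types XV and XVIII 31.7% and 17.2%.

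**Figure D1:**
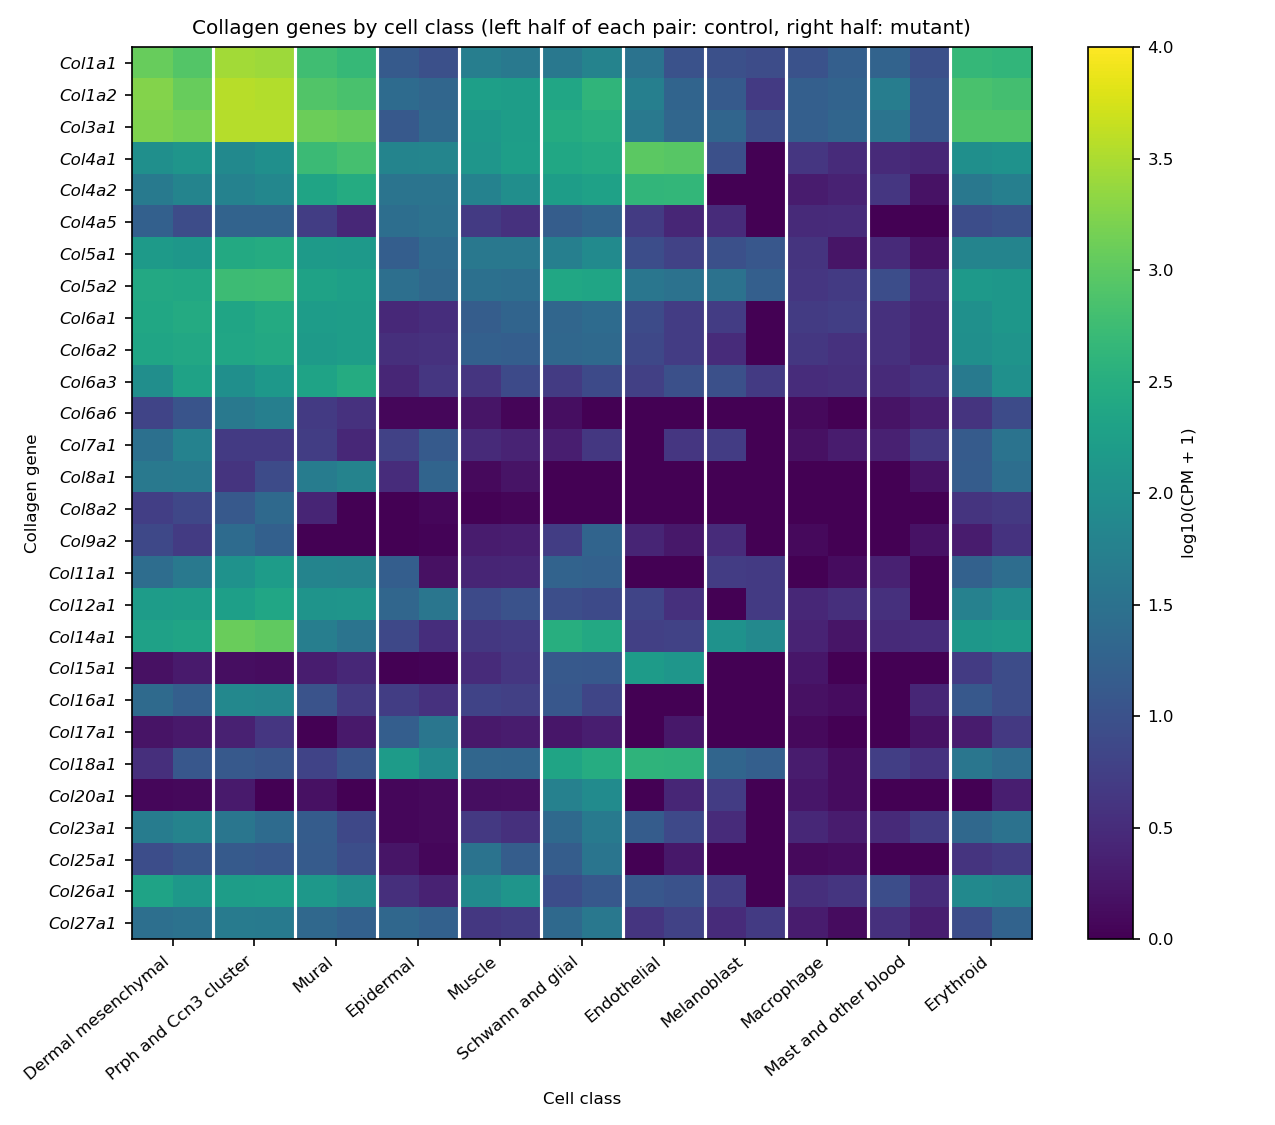
Level of the 28 collagen genes that reached 20 CPM in at least 1 class (rows), as log10(CPM + 1) by colour, in 11 cell groups (columns), with the control library at the left and the mutant library at the right of each pair. Col4a1, Col4a2, Col15a1 and Col18a1 are brightest in endothelial cells, and Col17a1 is brightest in epidermal cells.

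In all, 28 of the 44 genes reached 20 CPM in at least 1 class of at least 50 cells in either library and are described by name. The gene just inside this threshold was Col8a2 (22 CPM at most) and the gene just outside it was Col24a1 (14.4 CPM at most). The other 15 below it were Col2a1, Col4a3, Col4a4, Col4a6, Col5a3, Col6a4, Col6a5, Col9a1, Col9a3, Col10a1, Col11a2, Col13a1, Col19a1, Col22a1 and Col28a1. None of the 44 had 0 UMIs in both libraries, and 1, Col10a1, had fewer than 3. Col2a1, the main collagen of cartilage, was highest in Schwann and glial cells, at 5.05 CPM in control and 10.5 CPM in mutant. For 25 of the 28 genes the class with the highest level was the same in both libraries. These were the Prph and Ccn3 cluster for 13 genes, endothelial cells for 4, dermal cells for 3, mural and epidermal cells for 2 each, and Schwann and glial cells for 1.

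Among fibrillar collagens, Col1a1 (chr11:94936224-94953042, plus strand) and Col1a2 (chr6:4504814-4541544, plus strand) encode the chains of type I collagen, and Col3a1 (chr1:45311538-45349706, plus strand) the chain of type III. All coordinates are on GRCm38. Col1a1 had 1169 CPM in control and 846 CPM in mutant dermal cells, 2815 and 2563 CPM in the Prph and Ccn3 cluster, and 593 and 470 CPM in mural cells. Col3a1 had 1705 and 1442 CPM in dermal cells, 3583 and 3639 CPM in the Prph and Ccn3 cluster, and 1266 and 1128 CPM in mural cells. Col5a2, a chain of the type V collagen that sets fibril width, was also highest in the Prph and Ccn3 cluster, at 552 and 578 CPM, and lay between 177 and 258 CPM in dermal, mural, Schwann and glial cells of both libraries. Col11a1, a minor fibrillar chain, followed with 107 and 162 CPM in the Prph and Ccn3 cluster, 63.8 and 60.6 CPM in mural cells and 25.5 and 40.7 CPM in dermal cells.

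In cells thinned to 3000 UMIs, Col1a1 was detected in 88.7% of control dermal cells (exact binomial interval 88.0 to 89.4) and 80.9% of mutant dermal cells (79.6 to 82.0), with 96.9% and 91.8% unthinned. In macrophages, as the background, the thinned shares were 2.97% and 2.56%. Median depth was 7046 and 6116 UMIs in dermal cells and 10973 and 8654 UMIs in macrophages, and thinning left out 241 control and 270 mutant dermal cells. The dermal shares stand far above the macrophage shares in both libraries.

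The make-up of fibrillar collagen differed between classes. Type I collagen is usually built from a pair of chains encoded by Col1a1 and a single chain encoded by Col1a2. The UMI ratio of Col1a2 to Col1a1 was 1.54 (1.52 to 1.55) in control and 1.38 (1.36 to 1.41) in mutant dermal cells, and 1.55 and 1.47 in the erythroid class. In Schwann and glial cells it was 6.01 (4.86 to 7.5) in control and 6.83 (5.09 to 9.32) in mutant, and in muscle cells 3.62 (3.34 to 3.93) and 4.08 (3.57 to 4.67). The Schwann and muscle intervals do not overlap the dermal ones in either library. Col3a1 stood to Col1a1 as 7.45 (6.04 to 9.26) and 5.46 (4.05 to 7.49) in Schwann and glial cells, as 2.14 and 2.40 in mural cells and as 1.46 and 1.70 in dermal cells. In macrophages the ratio of Col3a1 to Col1a1 was 1.65 (1.08 to 2.55) and 1.25 (0.826 to 1.90), on 37 and 44 Col1a1 UMIs.

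**Figure D2:**
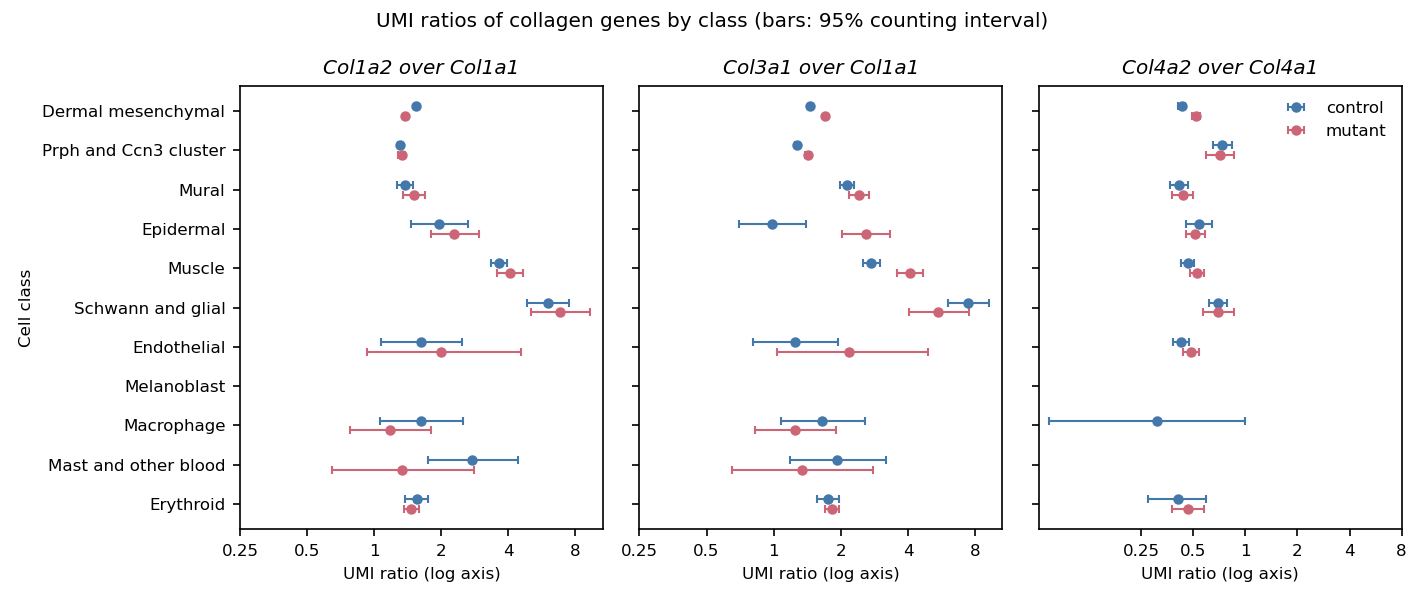
UMI ratios of Col1a2 to Col1a1, Col3a1 to Col1a1 and Col4a2 to Col4a1 (log axes) by cell class in the control and mutant libraries, with 95% counting intervals and ratios shown only where the second gene had at least 10 UMIs. Schwann and glial cells have the highest Col1a2 to Col1a1 ratio, 6.01 and 6.83, while the Col4a2 to Col4a1 ratio stays below 1 in every group shown.

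Of the network collagens, Col4a1 and Col4a2 encode the chains found in nearly all basement membranes and are transcribed in opposite directions from adjoining starts on chromosome 8. RefSeq places the starts so that they overlap by 22 bases (chr8:11312805-11312826, GRCm38.p6, shown on the plus strand, capitals mark the bases shared by both transcripts). The stretch is shown because the levels of the 2 genes are compared next.

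Col4a1 and Col4a2 shared start: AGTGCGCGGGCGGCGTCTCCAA

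Col4a1 was highest in endothelial cells at 999 CPM (944 to 1055) in control and 905 CPM (852 to 961) in mutant, followed by mural cells at 529 and 652 CPM. Schwann and glial cells had 243 and 279 CPM, muscle cells 127 and 177 CPM, dermal cells 98.7 and 120 CPM, and epidermal cells 63.1 and 64.5 CPM. Macrophages were at 3.25 and 2.08 CPM, so each of these classes stood above the background. Col4a2 kept the same leading classes, with 425 and 438 CPM in endothelial cells and 219 and 283 CPM in mural cells. In these classes the UMIs of Col4a2 were fewer than those of Col4a1, at a ratio of 0.426 (0.384 to 0.472) in control endothelial cells and 0.694 (0.613 to 0.786) in control Schwann and glial cells. Col4a5, which encodes an alternative chain used in some epithelial basement membranes, was highest in epidermal cells at 27 CPM (22.9 to 31.6) and 30.9 CPM (27.7 to 34.3). Its head-to-head neighbour Col4a6, whose annotated start lies 1308 bases away on chromosome X, did not reach 20 CPM but was also highest in epidermal cells, at 9.0 and 10.3 CPM. Col8a1, a chain of the sheet-forming type VIII collagen, was highest in mural cells at 46.7 and 61.5 CPM and had 40.2 and 42.0 CPM in dermal cells.

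Type VI collagen is assembled from 3 chains, and Col6a1 and Col6a2, neighbours on chromosome 10, encode the short ones. Col6a1 had 241 and 277 CPM in control and mutant dermal cells, 221 and 274 CPM in the Prph and Ccn3 cluster and 160 and 167 CPM in mural cells. Col6a2 had 224 and 247 CPM in dermal cells and 152 and 169 CPM in mural cells, close to Col6a1 in each. Col6a3 (chr1:90765923-90843971, minus strand), which encodes the long chain, was highest in mural cells at 209 CPM (189 to 231) in control and 284 CPM (253 to 317) in mutant. Dermal cells had 93.1 CPM (90.6 to 95.7) in control and 199 CPM (194 to 205) in mutant. In control dermal cells Col6a3 was thus the lowest of these 3 chains, and in mutant it came nearer to the other two. In cells thinned to 3000 UMIs it was detected in 21.5% of control and 40.6% of mutant dermal cells (40.6% and 60.2% unthinned), beside 0.594% and 0.641% of macrophages. Col6a6, an alternative long chain, was highest in the Prph and Ccn3 cluster at 41.1 and 52.1 CPM, against 5.61 and 10.0 CPM in dermal cells.

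Type VII collagen is encoded by Col7a1 (chr9:108953586-108984875, plus strand), which was highest in dermal cells, at 29.2 CPM (27.8 to 30.7) in control and 57.8 CPM (55.1 to 60.6) in mutant. Epidermal cells had 5.02 and 12.4 CPM and the Prph and Ccn3 cluster 3.76 and 3.72 CPM, so its level was higher in dermal than in epidermal cells at this stage. The transmembrane collagen Col17a1 (chr19:47646344-47692094, minus strand) had 14.5 CPM (11.6 to 18) in control and 36.2 CPM (32.8 to 39.9) in mutant epidermal cells, beside under 1 CPM in macrophages. Col23a1, another transmembrane collagen, was highest in dermal cells at 47.6 and 59.9 CPM. Col25a1, which has a known role in motor innervation of muscle, was highest in muscle cells of the control library (31.8 CPM) and in Schwann and glial cells of the mutant library (35.0 CPM).

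Upstream sequences are shown for 4 of these genes, because Col6a3 and Col7a1 had the highest ratios of mutant to control in dermal cells among genes above 20 CPM there, and because Col17a1 and Col3a1 hold a TATA box motif in the window. They are from RefSeq on GRCm38.p6, run 5′ to 3′ on the strand of the gene and end just before its most upstream start annotated by RefSeq or GENCODE. Capitals mark TATAAA. The windows are chr1:90844002-90844221 (minus strand) for Col6a3, chr9:108953336-108953585 (plus strand) for Col7a1, chr19:47692095-47692292 (minus strand) for Col17a1 and chr1:45311288-45311537 (plus strand) for Col3a1.

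Col6a3: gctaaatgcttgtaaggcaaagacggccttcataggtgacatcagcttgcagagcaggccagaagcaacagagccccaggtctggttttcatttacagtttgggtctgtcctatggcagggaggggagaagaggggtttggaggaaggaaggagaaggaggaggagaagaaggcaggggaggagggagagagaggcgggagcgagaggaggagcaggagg

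Col7a1: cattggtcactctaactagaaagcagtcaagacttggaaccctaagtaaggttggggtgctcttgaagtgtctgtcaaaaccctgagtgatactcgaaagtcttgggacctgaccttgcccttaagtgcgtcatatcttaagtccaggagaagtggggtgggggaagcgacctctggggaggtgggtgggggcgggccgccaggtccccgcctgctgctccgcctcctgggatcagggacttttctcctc

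Col17a1: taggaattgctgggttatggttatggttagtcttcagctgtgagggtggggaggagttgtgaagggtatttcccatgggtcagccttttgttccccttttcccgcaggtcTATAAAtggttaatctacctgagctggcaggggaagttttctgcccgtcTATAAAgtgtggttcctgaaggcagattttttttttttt

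Col3a1: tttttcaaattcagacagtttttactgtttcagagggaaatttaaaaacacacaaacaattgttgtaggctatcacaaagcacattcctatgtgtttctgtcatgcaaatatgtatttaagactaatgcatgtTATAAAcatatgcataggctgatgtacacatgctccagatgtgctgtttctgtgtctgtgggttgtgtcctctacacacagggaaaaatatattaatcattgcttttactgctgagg

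Windows of 250 bases before and 50 after each start were searched on both strands for the Gli binding motif GACCACCCA and for TATAAA, which do not overlap each other. The RefSeq table holds 35 of the 44 collagen genes. The Gli motif was in 0 of these 35 and in 0.289% of all 27025 genes, and TATAAA was in 5 of the 35 (Col3a1, Col10a1, Col11a2, Col13a1 and Col17a1) and in 15.7% of all genes. A match in the letters is a description and not a site.

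Among fibril-associated collagens, Col14a1 was the most abundant: 1227 CPM (1202 to 1253) and 1070 CPM (1031 to 1110) in the Prph and Ccn3 cluster, 316 and 257 CPM in Schwann and glial cells, 191 and 218 CPM in dermal cells and 110 and 75.2 CPM in melanoblasts. The melanoblast values rest on 52 and 20 UMIs, beside 1.5 and 0.692 CPM in macrophages. Col12a1 was present in all mesenchymal groups, with 159 and 169 CPM in dermal cells, 182 and 230 CPM in the Prph and Ccn3 cluster and 115 and 121 CPM in mural cells. Col16a1 had 71.8 and 66.7 CPM in the Prph and Ccn3 cluster. Col20a1 was found in Schwann and glial cells at 56.3 CPM (47.5 to 66.3) and 85.1 CPM (66.7 to 107), and after thinning it was in 0.0681% of control and 0.116% of mutant dermal cells.

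Of the proteoglycan collagens, Col15a1 was highest in endothelial cells at 158 CPM (137 to 182) and 126 CPM (107 to 148), with Schwann and glial cells at 12 and 11.7 CPM in the next place. Col18a1, which encodes the precursor of endostatin, was also highest in endothelial cells at 400 CPM (365 to 436) and 383 CPM (349 to 420), followed by Schwann and glial cells at 218 and 294 CPM and epidermal cells at 153 and 77.5 CPM. Col26a1 had 206 and 137 CPM in dermal cells, 170 and 173 CPM in the Prph and Ccn3 cluster, 135 and 94.0 CPM in mural cells and 80.2 and 120 CPM in muscle cells.

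Between the libraries, Col6a3, Col7a1, Col18a1, Col6a6 and Col11a1 were at least 1.5-fold higher in mutant dermal cells and Col1a2, Col4a5, Col16a1, Col24a1 and Col26a1 at least 1.5-fold lower, while Col1a1 and Col3a1 stayed within that bound. Of the 44 genes, 24 reached 10 CPM in dermal cells of either library; 5 of these were at least 1.5-fold higher in the mutant library, against 4.8% of all 8138 genes past the same filter, 5 were at least 1.5-fold lower, against 5.46% of all genes, and 14 were within 1.5-fold. Their median log2 ratio, mutant over control with 1 CPM added, was 0.16, beside 0.01 for all genes. Among the genes past 1.5-fold, Col18a1 and Col6a6 passed the filter only through the mutant library, and Col4a5 and Col24a1 only through the control library. Summed over the class, collagen genes had 6602 CPM in control and 5579 CPM in mutant, so the sum and the median differ in direction, and the 3 most abundant genes, Col1a2, Col3a1 and Col1a1, were each lower in the mutant. The libraries lay largely in separate dermal clusters: 78.2% of mutant dermal cells were in clusters 21, 22 and 23, which held 4 control cells.

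**Figure D3:**
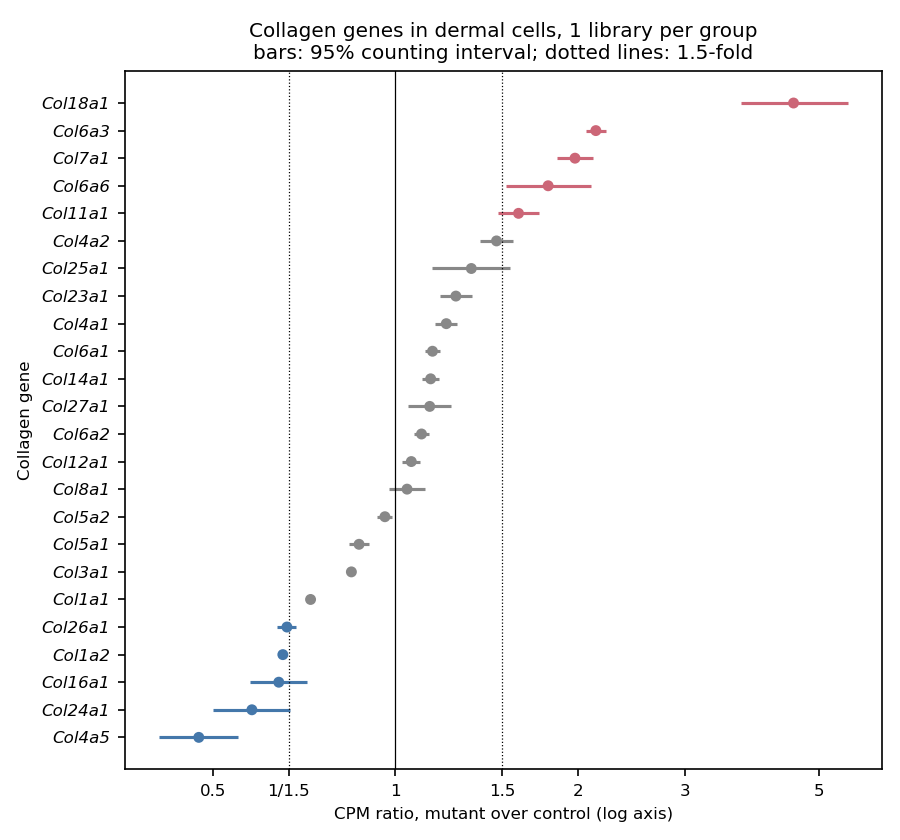
Ratio of CPM in mutant over control dermal cells (log axis) for the 24 collagen genes at 10 CPM or more in either library, 1 library per group, with 95% counting intervals. Col18a1 (4.54), Col6a3 (2.14) and Col7a1 (1.98) stand farthest to the right, and Col4a5, 2.11-fold lower, farthest to the left.

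Among fibrillar collagens of dermal cells, Col1a2 was 1.53-fold lower in the mutant library (1.52 to 1.55), at 1171 CPM against 1796 CPM. Col1a1 was 1.38-fold lower (1.36 to 1.40) and Col3a1 1.18-fold lower (1.17 to 1.20). Col5a1 and Col5a2 were 1.15-fold and 1.04-fold lower. Col11a1 was 1.60-fold higher (1.48 to 1.72), at 40.7 CPM against 25.5 CPM. Col24a1, outside the rule for named genes but past the filter here, was 1.73-fold lower (1.5 to 2.0), at 8.37 CPM against 14.4 CPM. The fibrillar chains thus lay on both sides of 1.

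Of the network collagens in dermal cells, Col4a1 was 1.21-fold higher and Col4a2 1.47-fold higher, both within the 1.5-fold bound, whereas Col4a5 was 2.11-fold lower (1.82 to 2.46). Its neighbour Col4a6, under the filter, was 10.1-fold lower (4.75 to 25.5), on 7 mutant and 133 control UMIs. Other genes under the filter went both ways. Col9a1 and Col9a3 were 4.63-fold and 4.60-fold lower, and Col4a4 and Col5a3 were 2.46-fold and 2.03-fold higher, the last pair on at most 28 UMIs in either library. The type VI chains split: Col6a3 was 2.14-fold higher (2.06 to 2.22) and Col6a6 1.79-fold higher (1.52 to 2.10), while Col6a1 and Col6a2 were 1.15-fold and 1.10-fold higher. Col7a1 was 1.98-fold higher (1.85 to 2.12). Col18a1 was 4.54-fold higher (3.71 to 5.57), at 11.3 CPM against 2.48 CPM, on 334 and 139 UMIs, and it was detected in 2.88% of mutant and 0.708% of control dermal cells after thinning (5.84% and 1.58% unthinned). Col16a1 was 1.56-fold lower (1.40 to 1.74) and Col26a1 1.51-fold lower (1.46 to 1.57). Col16a1 was 1.32-fold lower after thinning, and Col26a1 was also within 1.5-fold with doublets kept, after thinning and with classes from marker UMIs, at 1.44-fold lower at the least. With classes from marker UMIs, Col1a2, Col6a6 and Col11a1 were within 1.5-fold too. Col26a1, Col1a2, Col6a6 and Col11a1 lost their place past 1.5-fold when the Prph and Ccn3 cluster was joined to the dermal class, at ratios of 0.691, 0.672, 1.38 and 1.45, and Col14a1 was then at 0.924 against 1.14 in the class alone.

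Within clusters that both libraries shared, the picture was different for Col1a1 and similar for Col6a3. The dermal class had 6 clusters with at least 50 cells of each library (0, 1, 2, 5, 6 and 7), holding 6787 control and 961 mutant cells. Clusters 0, 2, 6 and 7 held 61 to 95 mutant cells each. Left out are clusters 21, 22 and 23, with Ptch1 among their 10 leading genes, and so most mutant dermal cells. In the 6 shared clusters the summed collagen level of the mutant over the control library lay between 0.935 and 1.16, and it was higher in the mutant in 5 of 6. Col1a1 was higher in the mutant library in 4 and lower in 2, with ratios from 0.770 to 1.13. Col1a2, the other type I chain, was lower in 4 and higher in 2, with ratios from 0.802 to 1.09. Col6a3 was higher in 6 of 6, with ratios from 1.30 to 2.18 and an interval that left out 1 in 5 of them. Col6a1, Col6a2 and Col4a2 were also higher in 6 of 6, at ratios of at most 1.38, 1.25 and 1.92. Col7a1 was higher in 2 and lower in 4, and Col18a1 higher in 4 and lower in 2. For each of these genes the interval left out 1 in only 1 of the 6. Col18a1 was lower in clusters 0 and 6, at 0 CPM in mutant against 0.762 and 0.837 CPM in control. Col4a5, lower in the class as a whole, was higher in 3 and lower in 3, at 1.69 (1.12 to 2.50) in cluster 1 and 1.60 (1.06 to 2.36) in cluster 5.

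The 3 clusters found nearly only in the mutant library differed from each other. Cluster 22 (747 mutant cells) had Col7a1 at 194 CPM, Col23a1 at 171 CPM, Col8a1 at 87.4 CPM and Col6a3 at 304 CPM, each above every other dermal cluster of either library with at least 50 cells except for Col8a1, which was at 114 CPM in control cluster 3. In the same cluster Col1a1 was at 413 CPM and Col1a2 at 589 CPM, below every other dermal cluster with at least 50 cells in either library. Cluster 21 (1547 cells) had Col18a1 at 15.2 CPM and Col26a1 at 100 CPM, and cluster 23 (1281 cells) had 11.2 and 113 CPM of these genes. These clusters have no counterpart in the control library, so cluster and genotype cannot be told apart there.

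To see the pattern by marker genes, dermal cells were divided by UMIs after thinning to 3000 per cell. Condensate-like cells had at least 2 of 7 dermal condensate genes (Foxd1, Gal, Sox18, Sox2, Trps1, Cdkn1a and Prdm1), which mark the cell clusters under hair placodes. The rest were divided into Lef1-positive cells and, among Lef1-negative cells, by UMIs of Crabp1, an upper dermis gene, into at least 5, 2 to 4, and 0 to 1. The condensate-like subset held 21 control and 798 mutant cells, so its control values carry wide intervals.

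In the control library summed collagen was 4995 CPM in Lef1-positive cells, 4914 CPM at high Crabp1, 7181 CPM at 2 to 4 Crabp1 UMIs and 9327 CPM at 0 to 1. In the mutant library it was 4467, 4462, 5205 and 6637 CPM in the same subsets, and 4473 CPM in condensate-like cells. The mutant was lower in each of these 4 subsets, by most where Crabp1 was low. In both libraries the level rose from high to low Crabp1, while the intervals of Lef1-positive and high Crabp1 cells overlapped. Condensate-like cells had 4639 CPM (4319 to 4977) in control, an interval that holds their mutant value. Cells at high Crabp1 made up 44.7% of thinned dermal cells in control and 16.2% in mutant, and those at 0 to 1 UMIs 31.8% and 39.8%. Crabp1 itself stood at 4398 and 3058 CPM in the high subset. A Crabp1 subset thus need not hold cells of the same dermal position in both libraries, and position was not tested. Col1a1 had 1769 CPM in control and 1137 CPM in mutant cells at 0 to 1 Crabp1 UMIs, a 1.56-fold lower level (1.52 to 1.59), and 803 and 622 CPM at high Crabp1, 1.29-fold lower (1.24 to 1.34). In mutant condensate-like cells it was at 434 CPM.

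**Figure D4:**
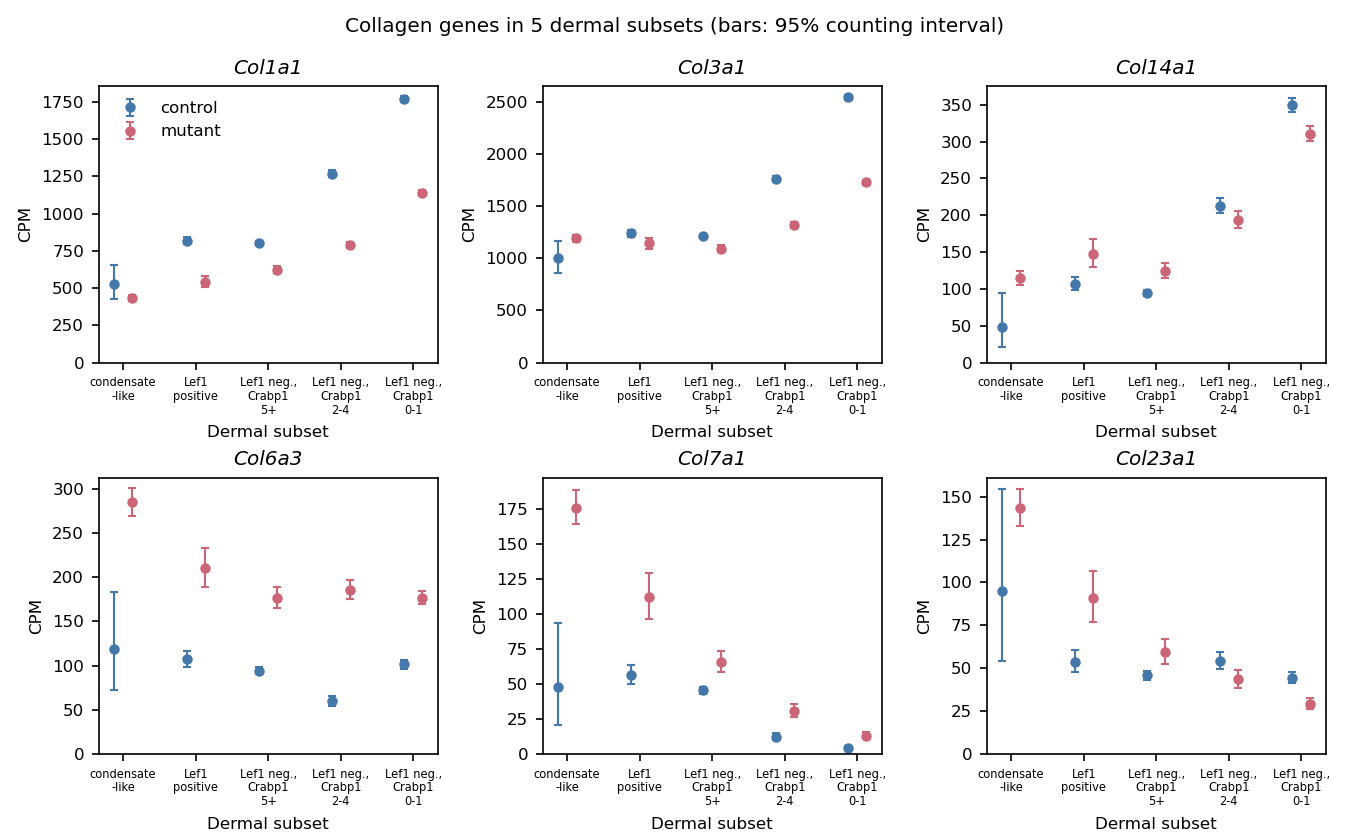
CPM of 6 collagen genes in 5 subsets of dermal cells in the control and mutant libraries, with 95% counting intervals and each vertical axis starting at 0. Col1a1, Col3a1 and Col14a1 are highest and Col7a1 is lowest at low Crabp1 in both libraries, and Col6a3 is higher in the mutant library in every subset.

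Col6a3 was higher in the mutant library in all 5 subsets. The ratio was 2.39 (1.54 to 3.93) in condensate-like cells, 1.96 (1.71 to 2.25) in Lef1-positive cells, 1.87 (1.73 to 2.03) at high, 3.09 (2.78 to 3.45) at intermediate and 1.74 (1.63 to 1.86) at low Crabp1. The genes that mark the subsets do not include a collagen. Col7a1 was lowest at low Crabp1: in control it was at 56.5 CPM in Lef1-positive cells and 45.5 CPM at high Crabp1, and at 4.66 CPM at low Crabp1. In mutant cells the order was the same, from 176 CPM in condensate-like cells through 112, 65.6 and 30.7 CPM to 13.3 CPM.

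Col8a1 and Col12a1 were within 1.5-fold in the dermal class, at ratios of 1.05 and 1.06, and differed in opposite directions in its subsets. Col8a1 was 3.32-fold higher (2.43 to 4.56) in mutant Lef1-positive cells and 1.97-fold higher (1.67 to 2.31) at high Crabp1, but 2.47-fold lower (2.13 to 2.87) at 2 to 4 Crabp1 UMIs and 1.89-fold lower (1.66 to 2.17) at 0 to 1. Col12a1 was 1.71-fold higher (1.40 to 2.08) and 2.03-fold higher (1.85 to 2.22) in the first pair of subsets and 1.36-fold and 1.35-fold lower in the second pair. Col23a1 showed the same order, from 1.69-fold higher (1.38 to 2.07) in Lef1-positive cells to 1.52-fold lower (1.34 to 1.73) at low Crabp1. For Col8a1 and Col12a1 a ratio near 1 in the class as a whole thus stood beside subset ratios on both sides of 1. The Crabp1 subsets held different shares of the 2 libraries, as given above, and whether like cells were compared in them was not tested.

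Cells with a UMI of Aspn or Ogn, which encode small proteoglycans, had more collagen than cells without one in both libraries, at 8140 against 5823 CPM in control and 6797 against 5174 CPM in mutant. Cells with a UMI of the Hedgehog targets Ptch1, Gli1 or Hhip made up 3.82% of thinned dermal cells in control and 61.8% in mutant. Their summed collagen was 5812 CPM in control and 5097 CPM in mutant, against 6614 and 6253 CPM in cells without such a UMI. Col6a3 was at 213 CPM in mutant cells with a target UMI and 172 CPM in those without, beside 113 and 92.0 CPM in control. The difference between the libraries in Col6a3 was thus present in both kinds of cell, and cells without a target UMI can still express the targets below detection.

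In epidermal cells the collagens of the hemidesmosome and anchoring fibril were higher in the mutant library and Col18a1 and Col11a1 were lower. Of the 44 genes 16 reached 10 CPM in either library; 6 of these were at least 1.5-fold higher in the mutant, against 4.16% of all 7309 genes past the filter, and 2 were at least 1.5-fold lower, against 2.7% of all genes, with 8 within. The median log2 ratio was 0.10, beside 0.06 for all genes. Among the genes past 1.5-fold, Col7a1 and Col8a1 passed the filter only through the mutant library, and Col11a1 only through the control library. The class held 553 control and 1390 mutant cells in clusters 8, 16 and 20, which both libraries shared, with dermal markers at 347 and 277 CPM. The title places the mutation in the dermis, and eYFP had 2 and 6 UMIs in these epidermal cells.

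Col17a1 was 2.49-fold higher (1.97 to 3.19) in mutant epidermal cells and Col7a1 2.47-fold higher (1.64 to 3.82). Col8a1 was at 18.4 CPM in mutant against 2.25 CPM in control, 8.18-fold higher (4.68 to 15.6), on 205 and 13 UMIs. It had 0 UMIs in macrophages of both libraries, with upper interval limits of 0.921 CPM in control and 1.275 CPM in mutant. Col12a1 was 1.85-fold higher (1.5 to 2.30) and Col5a1 1.61-fold higher (1.26 to 2.08). Col7a1 was at 1.49 after thinning and Col12a1 at 1.31 with doublets kept, both then within 1.5-fold. Col5a1 was within it with doublets kept (1.19), after thinning and with classes from marker UMIs. Col3a1 was 1.81-fold higher (1.39 to 2.39), at 22.2 CPM against 12.3 CPM, beside 19 and 15.2 CPM in macrophages of these libraries, and it was 1.51-fold lower with doublets kept and within 1.5-fold with classes from marker UMIs. The part of free RNA in it was not tested. Col18a1 was 1.98-fold lower (1.80 to 2.18), at 77.5 CPM against 153 CPM. After thinning it was detected in 18.9% of mutant and 34.2% of control epidermal cells (42.1% and 73.1% unthinned), and macrophages had 0.999 and 0.346 CPM. Col11a1 was 27-fold lower (11.9 to 75.7), with 6 UMIs in mutant and 84 UMIs in control cells. Col4a1, Col4a2, Col4a5 and Col4a6, the type IV chains past the filter, were between 0.971 and 1.15 times the control level.

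**Figure D5:**
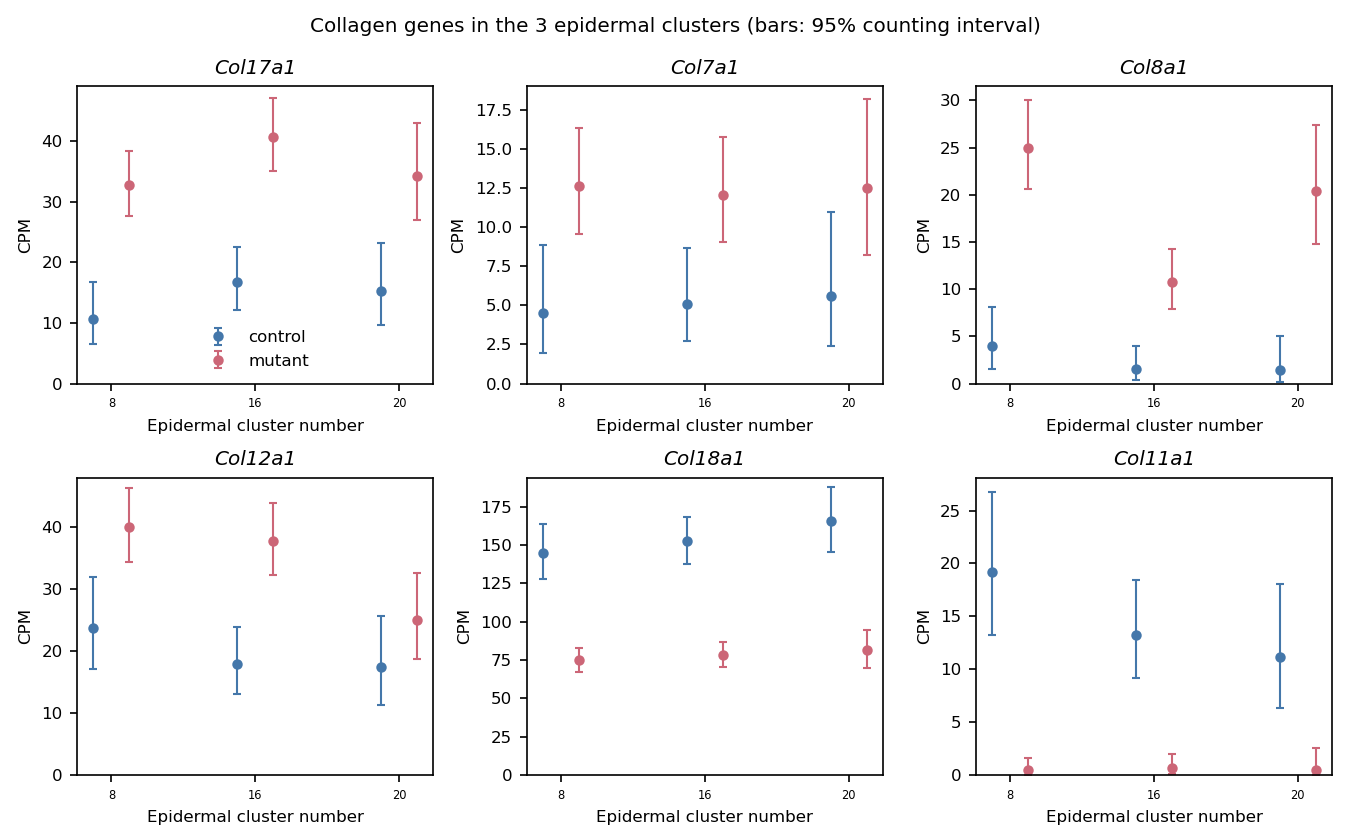
CPM of 6 collagen genes in the 3 epidermal clusters (8, 16 and 20) in the control and mutant libraries, with 95% counting intervals and each vertical axis starting at 0. Col17a1, Col7a1, Col8a1 and Col12a1 are higher and Col18a1 and Col11a1 lower in the mutant library in each of the 3 clusters.

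The epidermal differences had 1 direction in each of the 3 clusters. Ratios of Col17a1 ran from 2.24 to 3.05, of Col7a1 from 2.25 to 2.79, of Col8a1 from 6.33 to 14.7 and of Col12a1 from 1.44 to 2.11. The interval left out 1 in all 3 clusters for Col17a1 and Col8a1 and in 2 of 3 for Col7a1 and Col12a1. Col18a1 was 1.94-fold to 2.03-fold lower and Col11a1 19.7-fold to 43.4-fold lower. Cells with a UMI of Krt1 or Krt10, genes of suprabasal layers, made up 17.4% of thinned control and 20.0% of thinned mutant epidermal cells. Col17a1 was at 12 and 39.0 CPM in them, and at 15.1 and 35.2 CPM in cells with no UMI of Krt1, Krt10 or Dkk4. Dkk4, a gene of hair placodes, had a UMI without Krt1 or Krt10 in 49 thinned control cells and 0 mutant cells. Col11a1 was at 20.7 CPM in these 49 cells, on 11 UMIs, and at 15.8 CPM in control cells with none of the 3 genes against 0.447 CPM in mutant, on 67 and 4 UMIs. Col11a1 was thus also lower in mutant cells with no UMI of these 3 genes after thinning. Cells without a Dkk4 UMI can still express Dkk4 below detection, and the part of placode cells was not tested.

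In the Prph and Ccn3 cluster 24 genes passed the filter, of which 2 were at least 1.5-fold higher in the mutant (5.99% of all genes), 1 was lower (3.38%) and 21 were within. Col11a1 was 1.52-fold higher (1.35 to 1.71) and Col8a2 1.82-fold higher (1.29 to 2.55), and Col24a1 1.77-fold lower (1.07 to 3.06). Col24a1 passed the filter only through the control library, at 12.5 CPM against 7.08 CPM in mutant. Col1a1 was 1.10-fold lower and Col3a1 was at a ratio of 1.02 (0.992 to 1.04) there. Col6a3 was 1.42-fold higher (1.24 to 1.61). Col1a2 was 1.08-fold lower. Col1a1, Col1a2 and Col3a1 thus differed less between the libraries here than in the dermal class. The summed level of all collagen genes in this cluster was 1.02-fold lower in the mutant. The difference between the cluster and the class was not tested.

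In mural cells 18 genes passed, 0 were higher (7.22% of all genes) and 3 were lower (6.69%), namely Col14a1, Col23a1 and Col25a1, on at most 94 UMIs in either library. Col6a3 was 1.36-fold higher (1.17 to 1.58) and Col1a1 1.26-fold lower (1.14 to 1.40) there. In muscle cells 12 passed, 2 were higher (2.31% of all genes) and 1 was lower (1.12%). Col4a2 was 1.57-fold higher (1.42 to 1.75) and Col26a1 1.5-fold higher (1.37 to 1.64), while Col25a1 was 2.28-fold lower (1.82 to 2.88), at 13.9 CPM against 31.8 CPM. Hemoglobin stood at 1080 CPM in control and 8950 CPM in mutant muscle cells, and its part in these values was not tested.

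In Schwann and glial cells 22 genes passed, of which 10 were higher (9% of all genes) and 1 lower (5.75%). Of the collagen genes, 19 reached 10 CPM in the control and 21 in the mutant library there. Col1a2 was 1.76-fold higher (1.54 to 2.0), at 414 CPM against 236 CPM, and Col20a1 1.51-fold higher (1.12 to 2.02). Col25a1 was 2.50-fold higher (1.49 to 4.18), on 30 UMIs in mutant and 36 in control. Col9a2 was 4.37-fold higher (1.90 to 10.4), on 16 UMIs in mutant and 11 in control, and passed the filter only through the mutant library. In endothelial cells 10 passed, 0 were higher (7.93% of all genes) and 4 were lower (8.53%). The lower ones were Col1a1 (31.9 and 9.26 CPM), Col1a2 (51.8 and 18.5 CPM), Col3a1 (39.9 and 20.2 CPM) and Col23a1 (13.6 and 6.74 CPM). Of these, Col1a1 and Col23a1 passed the filter only through the control library. Dermal markers were at 158 CPM in control and 57.3 CPM in mutant endothelial cells, in the same direction as these 4 genes, and their part was not tested. Col4a1 was 1.10-fold lower (1.02 to 1.20), Col4a2 was at a ratio of 1.03 (0.911 to 1.16) and Col18a1 at 0.959 (0.843 to 1.09), so for the last pair no difference was detectable at this depth.

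The genes that process collagen were taken as a list of 56, from hydroxylation to receptors. In dermal cells 38 of them reached 10 CPM. Of these, 34 stayed within 1.5-fold, 1 was higher and 3 were lower, and their median log2 ratio was -0.09. The 16 genes of hydroxylation and folding and the 4 of export that reached 10 CPM were within, among them Serpinh1, the collagen chaperone, at 1099 and 1125 CPM, and the prolyl hydroxylase P4ha1 at 94.0 and 112 CPM. Of the 19 genes of hydroxylation and folding, the 3 under 10 CPM were P4ha3 (6.15 CPM in control and 3.64 CPM in mutant), P3h2 (5.95 and 9.65 CPM) and Colgalt2 (1.73 and 0.742 CPM), at ratios of 0.593 (0.473 to 0.738), 1.62 (1.38 to 1.91) and 0.428 (0.257 to 0.686). All 4 members past both the filter and 1.5-fold belong to breakdown. Timp3, an inhibitor of matrix proteases, was 5.48-fold higher (5.16 to 5.83), at 141 CPM against 25.6 CPM. The protease genes Ctsk, Mmp11 and Mmp2 were 2.20-fold (2.04 to 2.38), 1.77-fold (1.63 to 1.92) and 1.51-fold (1.42 to 1.61) lower. The receptor Ddr2 was 1.27-fold higher (1.21 to 1.32).

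In epidermal cells 19 genes of the list passed, 4 were higher and 0 were lower, with 15 within. The 4 are hydroxylases: P4ha1 was 1.55-fold higher (1.33 to 1.81), P4ha2 1.77-fold higher (1.32 to 2.41), Plod2 1.66-fold higher (1.16 to 2.41) and Plod3 1.63-fold higher (1.24 to 2.16). Plod2 passed the filter only through the mutant library, at 11.75 CPM against 7.09 CPM in control. The shares of all genes past the same bound in these classes are those given above for the collagens. The chaperone Serpinh1 was at 160 and 177 CPM in epidermal cells.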

How the data were processed

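Single-cell RNA was measured with 10x 3′ v3.1 chemistry in 1 control and 1 mutant library of skin cells, per the labels' protocols. The deposited matrices hold raw UMI counts per gene and barcode, made with Cell Ranger 5.0.1 and mm10 per the submitters' processing notes, with an added eYFP feature per the file headers. The annotation release used for counting is not given in the sources used here.

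Barcodes with at least 1000 genes and at most 10% mitochondrial UMIs were kept, and Scrublet calls were removed as doublets (593 control and 269 mutant cells). Cells were clustered with scanpy 1.11.5 (2000 variable genes, 30 principal components, Leiden resolution 1) without collagen genes, and clusters were named from marker lists. Raw UMIs were summed per class and library and scaled to CPM. Exact Poisson intervals were given for levels, exact conditional binomial intervals for ratios and Clopper-Pearson intervals for shares, at 95%, all for counting error only. Genes at 10 CPM in either library entered a comparison, and 1.5-fold was the bound for higher or lower. Genes reaching 20 CPM in a class of at least 50 cells were named. The ratio script was tested on simulated data. Members and lists were chosen with earlier results of these data known. Alternatives covered the filter, scaling, doublets, thinning, classes and clusters. With doublets kept, doublets took the class of their marker UMIs.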

Additional observations from a re-analysis of the deposited data

Results flagged for a closer look

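Some genes were higher in the mutant library in 1 class and lower in another, with intervals for counting error on opposite sides of 1, and none of these differences between classes was tested. The ratio of mutant to control for Col11a1 was 1.60 in dermal cells and 1.52 in the Prph and Ccn3 cluster, but 0.0370 in epidermal cells. Col18a1 stood at 4.54 in dermal and 0.505 in epidermal cells. For Col25a1 it was 2.50 in Schwann and glial cells and 0.438 in muscle cells, and for Col26a1 it was 1.5 in muscle cells and 0.662 in dermal cells. Col1a2 had ratios of 1.76 in Schwann and glial cells, 0.652 in dermal cells, 0.357 in endothelial cells and 0.234 in mast and other blood cells. Col1a1 had ratios of 1.55 in Schwann and glial cells and 1.65 in macrophages, and of 0.290 in endothelial cells and 0.482 in mast and other blood cells. Col3a1 had ratios of 1.81 in epidermal cells, 0.507 in endothelial cells and 0.333 in mast and other blood cells. Dermal markers stood at 129 CPM in control and 22.7 CPM in mutant mast and other blood cells, in the same direction as Col1a1, Col1a2 and Col3a1 there. The same held in endothelial cells, as given above, and the part of these markers was not tested. Macrophages were taken above as the background, and their Col1a1 ratio rests on 37 control and 44 mutant UMIs.

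The barcodes left out by the filters, which enter no comparison, also held collagen UMIs. Their summed collagen level was 1142 CPM in the control library and 497 CPM in the mutant library.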

How the results depend on the processing

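No paired analysis was possible because each group has 1 library and no result comes from a test. The median log2 ratio of dermal collagen genes, 0.16 as reported, was 0.0527 with no filter beyond 1 UMI and 0.081 with cells thinned to 3000 UMIs. The 5 dermal genes higher and 5 lower in the mutant became 2 and 2 at 50 CPM or more, and 10 and 13 with no filter. They became 3 and 3 both with classes taken from marker UMIs and with the Prph and Ccn3 cluster joined to the class, a setting chosen after seeing the data, and 3 were lower after thinning. In epidermal cells the median, 0.10 as reported, was -0.47 at 50 CPM or more. There the 6 higher and 2 lower genes became 0 and 1 at 50 CPM, 15 and 10 with no filter, and 7 were lower with doublets kept. The shares of all genes given above hold only for the settings as reported. The dermal and epidermal counts under other settings have no such share beside them and are not read against a background. Col3a1 in epidermal cells reversed with doublets kept, to a ratio of 0.662. Summed dermal collagen in control, 6602 CPM as reported, was 6664 CPM with doublets kept, 6737 CPM after thinning, 7317 CPM with classes from marker UMIs, 6343 CPM with clusters built on collagen genes too, and 7422 CPM with the Prph and Ccn3 cluster joined. In mutant, 5579 CPM as reported, it was 5708, 6163, 5416 and 6217 CPM under the last 4 of these settings. Causes were not tested, except that the filters change how many genes enter. Col4a5, Col6a3, Col7a1, Col18a1 and Col24a1 kept their side of 1.5-fold in dermal cells under all 8 alternatives run on gene ratios. Within shared clusters Col4a5, Col7a1 and Col18a1 had ratios on both sides of 1, in most clusters with an interval that held 1. In epidermal cells Col8a1, Col11a1, Col17a1 and Col18a1 kept their side under all 7.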
